A study of Mus musculus with 4 samples.

Results

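The mRNAs of 10 neuropeptide precursor genes were followed in cultured mouse cortical neurons: Npy, Sst, Cck, Tac1, Penk, Pdyn, Vip, Crh, Adcyap1 and Nts. They were chosen by name, matched to the count tables through their Ensembl identifiers and GENCODE M21 symbols, and make up 10 of the 31053 genes counted. The samples were primary cortical neurons from wild-type mice, with no other allele and no agent named for any group. The study's methods describe cultures from embryonic cortices treated with floxuridine to limit dividing cells. Enhanced crosslinking and immunoprecipitation (eCLIP) used an antibody to RPS2, which belongs to the small subunit of the ribosome, and the RNA that came down was sequenced (IP, 2 libraries). Total RNA was taken from the same samples ahead of the IP (2 libraries), so a replicate number was read as 1 sample. By the labels the IP libraries were depleted of ribosomal RNA and total RNA was untreated, while the methods do not say which libraries were depleted. If the labels hold, depletion and IP cannot be told apart. The study divided IP counts by those of total RNA to obtain a translational efficiency for each mRNA.

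A neuropeptide is made as a larger precursor protein. The precursor enters the secretory pathway behind a signal peptide, is cut by prohormone convertases at pairs of basic residues, and is trimmed and often amidated before the peptide is stored in dense core vesicles. In the cortex Sst, Npy, Vip, Crh and Tac1 are known from subsets of GABAergic interneurons, whereas Cck and Adcyap1 are also made by excitatory neurons. Several of these genes are classic targets of transcription factors that respond to cAMP and calcium.

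The reading frames were short, from 97 codons in Npy to 268 in Penk in the GENCODE M21 transcripts. The opening 60 coding bases of the 4 members with the highest levels are shown because they hold the start codon, in capitals, and the stretch that encodes the beginning of the signal peptide. They were read from the coding strand of the GENCODE M21 transcripts. On mm10, Cck lies on the minus strand at chr9:121489824-121495694, Npy on the plus strand at chr6:49822710-49829507, Adcyap1 on the plus strand at chr17:93199422-93205485 and Sst on the minus strand at chr16:23889573-23890958. The transcripts have 4, 4, 5 and 2 exons in that order.
Cck: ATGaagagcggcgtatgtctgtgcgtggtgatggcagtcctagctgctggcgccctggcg
Npy: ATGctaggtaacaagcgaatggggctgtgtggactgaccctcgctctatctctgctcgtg
Adcyap1: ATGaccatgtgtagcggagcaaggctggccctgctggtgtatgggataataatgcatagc
Sst: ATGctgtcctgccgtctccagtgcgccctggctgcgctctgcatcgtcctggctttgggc

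The encoded precursors differed in the number of basic runs, meaning 2 or more lysine or arginine codons in a row, the kind of site at which convertases cut. Penk, which encodes proenkephalin, held 12 such runs and 7 copies of an enkephalin core (tyrosine, 2 glycines, phenylalanine, then methionine or leucine). Pdyn, which encodes prodynorphin, held 8 runs and 3 copies of that core. Sst had 1 run, Npy and Crh 2 each, Cck 3, Tac1 and Nts 5 each, Vip 6 and Adcyap1 8. A glycine codon followed by 2 basic codons, 1 pattern at which amidation can follow cutting, was found 2 times each in Tac1, Vip and Adcyap1 and 1 time each in Npy and Nts. All these counts come from 1 transcript per gene, that with the longest coding sequence, which for Cck was Cck-204 with 134 codons. Other transcripts and other amidation patterns were not searched, so a match or its absence does not show whether a peptide is amidated.

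Promoter windows around the RefSeq start (build GRCm38.p6) were matched for 8 of the 10 members. They were searched for the cAMP response element TGACGTCA and for its core TGACG on either strand, 2 motifs that overlap. The promoters of the 4 members with the highest levels are shown, with the full element or the core in capitals. Adcyap1 and Pdyn had more than 1 window, and 1 window of Adcyap1 is shown. The other window of Adcyap1 (chr17:93198918-93199217, + strand) holds the same core at position -242.
Sst (chr16:23890795-23891094, - strand): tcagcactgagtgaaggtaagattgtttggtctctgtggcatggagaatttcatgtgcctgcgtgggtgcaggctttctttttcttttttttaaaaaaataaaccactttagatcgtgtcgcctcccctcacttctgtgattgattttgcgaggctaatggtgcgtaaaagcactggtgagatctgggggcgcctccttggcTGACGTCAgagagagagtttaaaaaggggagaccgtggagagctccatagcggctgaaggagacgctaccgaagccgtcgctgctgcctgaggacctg
Cck (chr9:121495645-121495944, - strand): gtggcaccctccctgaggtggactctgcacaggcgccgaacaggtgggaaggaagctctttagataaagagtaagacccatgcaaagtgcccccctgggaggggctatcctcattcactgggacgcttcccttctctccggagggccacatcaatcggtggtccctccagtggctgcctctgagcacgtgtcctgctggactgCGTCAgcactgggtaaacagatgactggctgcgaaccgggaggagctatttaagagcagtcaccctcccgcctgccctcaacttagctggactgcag
Adcyap1 (chr17:93198767-93199066, + strand): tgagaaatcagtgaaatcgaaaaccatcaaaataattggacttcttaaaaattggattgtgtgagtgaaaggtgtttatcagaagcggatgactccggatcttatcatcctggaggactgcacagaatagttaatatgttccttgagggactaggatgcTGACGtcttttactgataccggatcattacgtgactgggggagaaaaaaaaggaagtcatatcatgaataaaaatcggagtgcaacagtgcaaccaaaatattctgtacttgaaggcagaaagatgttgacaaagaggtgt
Npy (chr6:49822460-49822759, + strand): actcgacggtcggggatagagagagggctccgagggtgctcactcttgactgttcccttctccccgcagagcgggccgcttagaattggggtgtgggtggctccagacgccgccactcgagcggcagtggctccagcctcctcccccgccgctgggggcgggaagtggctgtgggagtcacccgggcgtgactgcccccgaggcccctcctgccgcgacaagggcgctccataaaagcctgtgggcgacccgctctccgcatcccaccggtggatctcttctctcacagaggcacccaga

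The full element was found in Sst alone among the 8 members, beginning at position -48 from the RefSeq start, and in 1.79% of all 32851 promoters searched. The core was found in 6 of the 8, namely Sst, Cck, Adcyap1, Vip, Nts and Tac1, and in 20.8% of all promoters. Members are counted here as genes and all promoters as windows. Neither motif lay in the windows of Npy or Pdyn. These matches are letters in a window and were not tested as sites or against any difference in level.

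Of the 10 precursors, 8 had at least 10 counts in every library. Pdyn had 7 counts in total RNA of replicate 1, and Nts 1 count there, under the detection floor of 3 counts. Levels are given as CPM, counts scaled to the effective library size,, and between genes as CPM per kilobase of counted exon. Cck, which encodes cholecystokinin, came first at a mean of 245 CPM per kilobase over the 4 libraries. Npy (neuropeptide Y) followed at 202, Adcyap1 (the precursor of PACAP) at 170.2 and Sst (somatostatin) at 82.8 CPM per kilobase. These 4 genes stood between percentiles 98.7 and 99.7 of all genes with a count, and took 88.9% to 91.6% of the summed CPM of the 10 precursors. Crh (corticotropin-releasing hormone) had 20.3 and Penk 18.1 CPM per kilobase. Vip (vasoactive intestinal peptide) had 4.66, Nts (neurotensin) 3.84, Tac1 (the precursor of substance P) 3.53 and Pdyn 1.17 CPM per kilobase, the last at percentile 46.3. Neighbours in this order overlapped in their ranges over the 4 libraries except at 3 steps, from Sst to Crh, from Penk to Vip and from Tac1 to Pdyn. The plot of levels by library shows these steps.

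**Figure D1:**
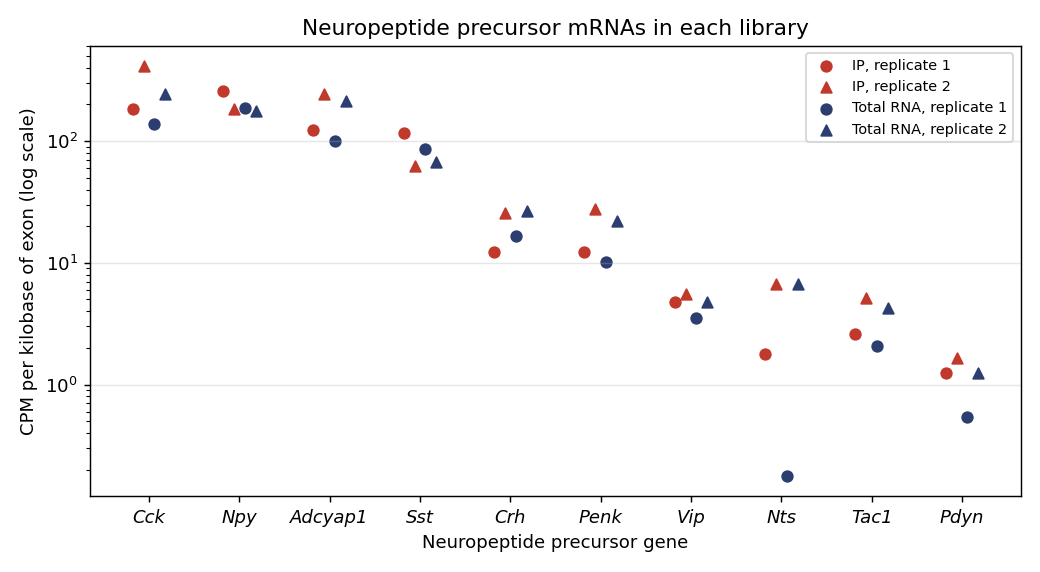
Level of each neuropeptide precursor mRNA in each library, as CPM per kilobase of counted exon on a log axis; red marks IP, blue marks total RNA, circles replicate 1 and triangles replicate 2. The 4 genes on the left lie at or above 62.7 CPM per kilobase in every library, and for most genes the triangles lie above the circles.

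The counted exons of Adcyap1 held 61.6% of the bases of its GENCODE M21 transcript, so reads from the rest of that transcript were not counted. Counted exons of Tac1, Vip and Cck spanned 3399, 3402 and 1305 bases, against 1230, 1530 and 799 in the transcript used above. Those of Penk and Pdyn were also longer than the transcript. Levels per kilobase of these 5 genes are thus lower than on transcript length, and the order depends on the length used. Penk lies opposite the antisense gene A830012C17Rik, and counting used strand. No member had an annotated small RNA in its counted exons. In bulk samples like these, fewer cells of a type and less RNA per cell cannot be told apart.

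Library totals ran from 4899718 to 16460545 counts, and the floor of 3 counts was worth 0.216 to 0.667 CPM. The single most counted gene was Gm42418, which overlaps a ribosomal RNA repeat. It took 42.6% and 27.9% of the IP libraries of replicates 1 and 2, and 39.8% and 15.3% of total RNA. Markers of neurons, the labelled cell type, were present, with all 14 excitatory and all 24 GABAergic genes listed passing the count filter. Their summed levels were 2966 to 3600 and 1903 to 2414 CPM. Passing the filter does not single out neurons, since 8 of 9 astrocyte and 5 of 8 microglia markers passed as well. Astrocyte markers summed to 2932 and 3495 CPM in replicate 1 and to 1398 and 1529 CPM in replicate 2, and microglia markers to 124.2 and 137.6 against 7.22 and 9.42 CPM. Endothelial markers summed to 0.807 to 1.78 CPM and Cldn5 was at 0 in all 4 libraries.

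RPS2 IP was then compared with total RNA within each replicate. Cck was the 1 member that passed the test, 1.5-fold higher in the IP, and no member was called lower. In all, 9 of the 10 fitted changes were above 0 and that of Crh was below it, against 6325 above 0 of the 12336 genes tested. In replicate 2 the log2 ratios of Sst, Crh and Nts were below 0 (-0.094, -0.054 and -0.0052), and in replicate 1 only that of Crh (-0.44). Over the members the median log2 change was 0.30, against 0.011 over the 12336 genes tested. With an offset for GC content and gene length the median of the members was 0.071, with 7 changes above 0 and 3 below it. Of all genes tested, 6.63% were called higher and 7.55% lower, so 1 of 10 is close to the background.

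Cck had 241 CPM in IP replicate 1 and 536 in IP replicate 2, against 181 and 320.5 CPM in total RNA. The IP library was the higher of the pair in both replicates, although the groups overlapped, because total RNA of replicate 2 lay above IP of replicate 1. Within pairs the log2 ratio was 0.41 (exact 95% counting interval 0.30 to 0.52) in replicate 1 and 0.74 (0.67 to 0.82) in replicate 2. Each SE of a fitted change, here and below, comes from the F statistic of the paired edgeR fit. It rests on a spread pooled over genes, not on that between the 2 pairs of a gene. The paired edgeR fit gave a log2 change of 0.58 ± 0.10 (adjusted p = 5.2e-07). Without pairing, the spread between replicates exceeded this difference: the IP mean was 389 ± 208 CPM and the total RNA mean 251 ± 98.4 CPM (SD, n = 2 each), and edgeR gave a log2 change of 0.63 with an adjusted p of 1. Without pairing edgeR called 0 of all genes in either direction, with 349 at an unadjusted p under 0.05.

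Npy and Sst, both interneuron peptides, had a raised ratio in replicate 1 and a ratio near 0 in replicate 2. Npy was measured at 147 and 103 CPM after IP, against 107 and 101 CPM in total RNA of replicates 1 and 2. Its log2 ratio was 0.46 (0.32 to 0.61) in replicate 1 and 0.033 (-0.11 to 0.18) in replicate 2, and the fit gave 0.25 ± 0.11 (edgeR adjusted p = 0.106). Sst was measured at 83.5 and 45.2 CPM after IP, against 61.8 and 48.3 CPM in total RNA. For Sst the log2 ratio was 0.43 (0.24 to 0.63) and then -0.094 (-0.31 to 0.12), with a fitted change of 0.18 ± 0.12 (edgeR adjusted p = 0.347). For Sst the total RNA values lay inside the range of the IP values, and for Npy total RNA of replicate 1 lay between the IP libraries, so the groups overlapped.

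Adcyap1 had the most counts of any member in total RNA of replicate 2, yet its change was small. It stood at 255.5 and 507 CPM after IP, against 210.1 and 449 CPM in total RNA. The log2 ratio was 0.28 (0.18 to 0.39) in replicate 1 and 0.17 (0.11 to 0.24) in replicate 2. Counting error alone left both above 0, but against the spread the fit allowed, 0.23 ± 0.099, it did not pass (edgeR adjusted p = 0.112). With an offset for GC content and gene length its direction turned, to -0.13 (edgeR adjusted p = 0.545).

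Crh, the hormone that drives the stress axis, was the 1 member with both ratios below 0. Its levels were 16.1 and 33.99 CPM after IP, against 21.8 and 35.3 CPM in total RNA. The log2 ratio was -0.44 (-0.79 to -0.079) and -0.054 (-0.30 to 0.19), and the fitted change was -0.21 ± 0.15 (edgeR adjusted p = 0.393). The call changed with the GC and length offset, which gave -0.47 (edgeR adjusted p = 0.0329).

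The opioid precursors Penk and Pdyn had fitted log2 changes of 0.31 ± 0.15 and 0.70 ± 0.42, and neither passed (edgeR adjusted p = 0.167 and 0.287). Penk stood at 19.9 and 45.5 CPM after IP, against 16.5 and 36.3 CPM in total RNA, with log2 ratios of 0.28 and 0.33 that were close to each other. Pdyn had 50 and 53 IP counts against 7 and 22 for total RNA, so that its interval in replicate 1 ran from 0.065 to 2.6 on the log2 scale. In this fit Pdyn had the largest change of the members and the widest standard error, whereas DESeq2 gave 0.75 for Pdyn and 1.32 for Nts.

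Vip was the 1 member whose IP libraries both lay above both total RNA libraries, at 16.31 and 18.83 against 12.01 and 16.25 CPM. IP of replicate 1 and total RNA of replicate 2 were thus nearly equal. Over all genes tested 16.9% had both IP libraries above and 14.9% both below. The fitted log2 change of Vip was 0.31 ± 0.19 (edgeR adjusted p = 0.305), and 0.0081 with the GC and length offset. Tac1 stood at 8.88 and 17.6 CPM after IP, against 7.11 and 14.4 CPM in total RNA, a fitted log2 change of 0.30 ± 0.23 (edgeR adjusted p = 0.435). Nts had 31 and 93 IP counts against 1 and 51 for total RNA. Its ratio in replicate 1 rests on that 1 count (ratio 10.1, exact 95% interval 1.68 to 410), and in replicate 2 the log2 ratio was -0.0052 (-0.51 to 0.52). The fitted change of Nts was 0.46 ± 0.37 (edgeR adjusted p = 0.466).

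**Figure D2:**
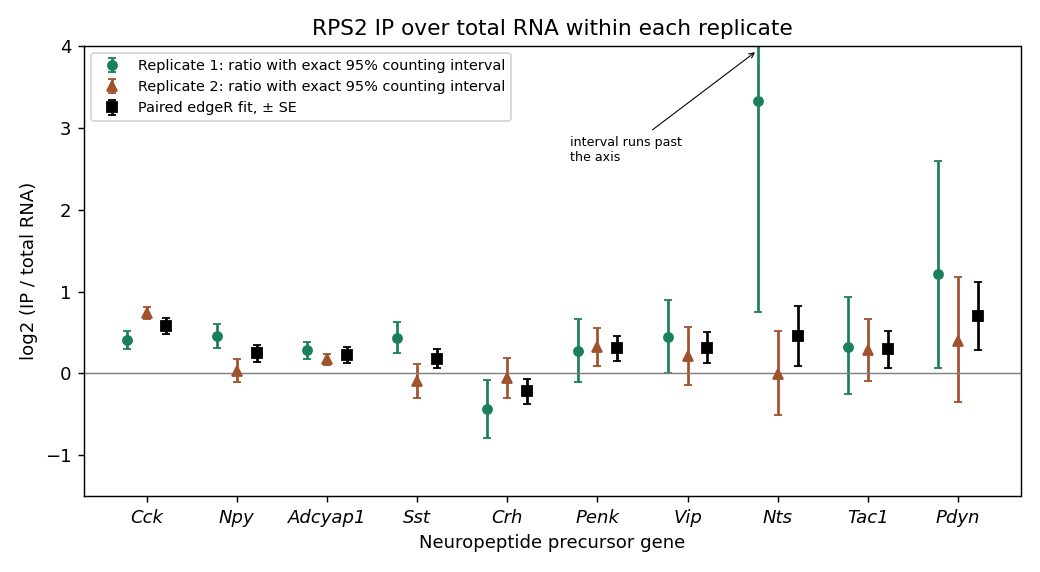
RPS2 IP over total RNA for each neuropeptide precursor, as log2 ratios on effective library sizes; circles are replicate 1 and triangles replicate 2 with exact 95% counting intervals, and squares are the paired edgeR fit ± SE. Cck lies above 0 in both replicates and passed the test, Crh lies below 0 in both, and the interval of Nts in replicate 1 runs past the axis.

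Before adjustment 4 of the 10 members, Cck, Npy, Adcyap1 and Penk, had p under 0.05 in the paired edgeR fit, as did 26.1% of all genes tested. The members were short, with a median counted length of 1477 bases against 4672 over all genes tested, and their median GC content was 51.7% against 50.5%. With the offset for both, Cck was at 0.52 and still called higher, while Tac1 was at 0.063 and Sst at 0.079, and Crh, Adcyap1 and Nts were below 0.

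Levels also differed between the replicates. In both library types 8 of the 10 precursors were higher in replicate 2, while Npy and Sst were higher in replicate 1. Over all genes tested 37.4% were higher in replicate 2 in both library types and 38.4% in replicate 1. There was 1 sample per replicate number, so these differences are given with no test.

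Penk was 2.28-fold higher in replicate 2 in the IP and 2.20-fold in total RNA. Cck was 2.22-fold and 1.77-fold higher, Adcyap1 1.98-fold and 2.14-fold, and Tac1 1.98-fold and 2.03-fold. Crh was 2.11-fold and 1.62-fold higher in replicate 2. The 5 genes thus differed by factors between 1.62 and 2.28 in both library types. Pdyn was 1.32-fold and 2.32-fold higher and Vip 1.15-fold and 1.35-fold, and for both genes the counting intervals of the difference held 0 in both library types. Nts was 3.73-fold higher in replicate 2 in the IP, and its 1 count in total RNA of replicate 1 gives no firm factor.

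Sst was 1.85-fold higher in replicate 1 in the IP and 1.28-fold in total RNA, and Npy 1.42-fold and 1.06-fold. The interval of Npy in total RNA held 0 (-0.093 to 0.26 on the log2 scale). With scaling to library totals only, the median log2 difference of all genes tested was -0.41 in the IP and -0.53 in total RNA. On effective library sizes these medians were 0.0012 and 0.017. Library totals turned the total RNA differences to -0.46 for Npy and -0.19 for Sst on the log2 scale. The other 8 genes were higher in replicate 2 in both library types under each of the 4 scalings tried.

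Other gene lists, chosen like the members with earlier results of these data known, moved between the replicates as well. Their counts stand beside 38.4% of all genes tested higher in replicate 1 in both library types and 37.4% in replicate 2. Of 13 activity-regulated genes, such as Fos, Bdnf and Vgf, 12 were higher in replicate 2 in both library types and 0 in replicate 1, with median log2 differences (replicate 1 over 2) of -0.84 for IP and -0.94 for total RNA. The corresponding medians of the 10 precursors were -0.98 and -0.91. GABAergic markers went the other way, with 18 of 24 higher in replicate 1 and 2 in replicate 2 and medians of 0.45 and 0.33, and so did excitatory markers, with 10 of 14 and 2 of 14 and medians of 0.42 and 0.25. All 8 astrocyte markers and all 5 microglia markers that passed the filter were higher in replicate 1, with medians of 1.52 and 1.20 and of 4.03 and 4.63. The plot of replicate differences shows these genes beside the precursors. Nts lay beyond every activity-regulated gene, although its total RNA value rests on 1 count in replicate 1. In the IP its interval (-2.53 to -1.3 on the log2 scale) overlapped that of the nearest activity-regulated gene (-1.9 to -1.52). The part of cell makeup and of activity in the precursor levels was not tested.

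The wider peptide system was also measured. Of 46 other neuropeptide and peptide hormone precursors, 19 had no count in any library and 10 passed the count filter. The highest per kilobase were Nppc (C-type natriuretic peptide) at 74.2, Cort (cortistatin, a relative of somatostatin) at 37.7 and Pnoc (prepronociceptin) at 37.5 CPM per kilobase. In the IP 2 of the 10 were called higher and 0 lower, against 6.63% and 7.55% of all genes tested. Pnoc rose by a log2 change of 0.38 ± 0.11 (edgeR adjusted p = 0.00864) and Cartpt, the precursor of the CART peptides, by 0.48 ± 0.15 (edgeR adjusted p = 0.0173). Nppc and Cort had changes of -0.030 ± 0.11 and -0.20 ± 0.16. The calls of Pnoc and Cartpt were lost under library totals alone, the GC and length offset, and DESeq2, and that of Cartpt also with libraries thinned to the smallest total. Between the replicates 6 of the 10 were higher in replicate 2 in both library types and 1 in replicate 1, against 37.4% and 38.4% of all genes tested.

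Of 25 receptors for these peptides 19 passed the filter. Sort1, the sorting receptor that also binds neurotensin, was highest at 28.8 CPM per kilobase, followed by Ntsr2, a neurotensin receptor that astrocytes express, at 20.5 and the somatostatin receptor Sstr1 at 19.9. Of the 19 receptors 1 was called higher in the IP and 0 lower, against 6.63% and 7.55% of all genes tested. It was Ntsr2, with a log2 change of 0.42 ± 0.12 (edgeR adjusted p = 0.00452). That call was lost with library totals alone and with DESeq2. Sort1 and Sstr1 had log2 changes of 0.20 ± 0.099 and 0.17 ± 0.13 that did not pass. Of the 19 receptors 10 were higher in replicate 1 in both library types and 5 in replicate 2, against 38.4% and 37.4% of all genes tested. The difference from the list of precursors was not tested.

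All 9 genes of precursor processing passed the filter. Cpe, the carboxypeptidase that trims basic residues, was highest at 633 CPM per kilobase and had a log2 change of -0.097 ± 0.11. Pcsk1n, the inhibitor of the convertase PC1/3, was next at 117 and was lower in the IP, by -0.45 ± 0.099 (edgeR adjusted p = 0.000202). Scg5, the chaperone of the convertase PC2, stood at 74.7 CPM per kilobase and was higher, by 0.39 ± 0.11 (edgeR adjusted p = 0.00421). Furin, a convertase of the secretory pathway of most cells, was lower by -0.68 ± 0.12 (edgeR adjusted p = 6.8e-07), and Cpd, a related carboxypeptidase, by -0.28 ± 0.10 (edgeR adjusted p = 0.0429). In this list 1 of 9 genes was thus called higher and 3 lower, against 6.63% and 7.55% of all genes tested. The median log2 change of the list was -0.044. The calls of Furin and Pcsk1n held in all 10 paired fits, and those of Scg5 in 7 and Cpd in 6. With the GC and length offset the change of Furin was -0.38 and that of Scg5 0.10.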

How the data were processed

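The values deposited are raw counts of reads for each gene, made by the authors with featureCounts 1.5.3, strand-specific, on an mm10 annotation packaged for single-cell work. Per the study's methods, reads were trimmed by cutadapt and mapped over their whole length by STAR. Duplicate removal is not mentioned, so counting intervals cover counting error only. Reads at several loci or in several genes were not counted.

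The analysis used edgeR 4.0.16 in R 4.3.3. The filterByExpr rule kept 12336 genes, all 10 members among them. After TMM scaling, the two-sided quasi-likelihood test set IP against total RNA, with the replicate number as a block, Benjamini-Hochberg adjustment over all genes kept and a threshold of 0.05. From the study's methods each total RNA library was read as sharing its sample with the IP library of the same number, which the labels do not state. Deviations from the group means correlated at 0.733 between same-numbered libraries. The paired fit leaves 1 residual degree of freedom and all genes share the trend of dispersion. Prior degrees of freedom were infinite in this fit, so the spread of a gene between its pairs enters neither its p-value nor its SE. No source says that the replicates were separate cultures, so p-values rest on a spread between these samples pooled over genes, which may be technical. Intervals of a ratio within a pair are exact Clopper-Pearson intervals from the 2 counts.

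Symbols came from GENCODE M21 and matched 30934 of 31053 genes. Promoters came from RefSeq and coding sequence from GENCODE M21. The members and gene lists were chosen with earlier results of these data known. Genes named were all members and, of the lists of other precursors, receptors and processing genes, those called and the 3 highest per kilobase. The marker and activity genes named (Cldn5, Fos, Bdnf, Vgf) and Gm42418 were named outside that rule. The alternatives were the fit without the block, other scalings, count filters, libraries thinned to the smallest total, an offset for GC content and length, DESeq2 1.42.0 and limma-voom (limma 3.58.1). The fit with limma-voom and the other scalings of the replicate difference were chosen after seeing the data.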

Additional observations from a re-analysis of the deposited data

How the results depend on the processing

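Cck was called higher in all 10 paired fits, with a log2 change from 0.50 to 0.61 and an adjusted p from 2.1e-08 to 0.0244, and was not called without the replicate block (0 members higher). With the GC and length offset 1 member, Crh, was called lower, and the changes of Adcyap1 (-0.13) and Nts (-0.019) turned. Nppc turned to 0.0027 with libraries thinned to the smallest total, and with the offset was called lower at -0.36 (adjusted p = 0.0257). Of all genes, 818 were called higher and 931 lower. Higher calls fell to 0 without the block, 283 with library totals alone, 473 with that offset and 158 with DESeq2, and lower calls to 0 without the block, 383 with the offset and 382 with DESeq2. DESeq2 gave no adjusted p for 7653 genes. With library totals alone the median of all genes moved by -0.084 on the log2 scale. At a minimum of 100 counts in every library 4 members were expressed, against 8 at 10 counts and 10 by filterByExpr. Leaving out replicate 1 or 2 leaves 1 pair and no test. The log2 change of Cck was then 0.41 to 0.74, and that of Nts reached 2.46 in replicate 1, computed with a prior count of 2 that shrinks its ratio. Nts and Pdyn were not tested where 10 counts were required in every library. The low counts of Nts and Pdyn in total RNA limit their ratios.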
